A study of Mus musculus with 9 samples.

Results

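The genes of the Eph and ephrin family and of the semaphorin, plexin and neuropilin family were described in mouse duodenal organoids that had been transduced with adenovirus. Members were all genes with an Epha, Ephb, Efna or Efnb symbol, a Sema3 to Sema7 symbol, a Plxna to Plxnd symbol or the symbol Nrp1 or Nrp2, and this rule found 53 of the 46517 genes in the tables. They comprised 9 EphA receptors, 5 EphB receptors, 5 ephrin-A and 3 ephrin-B ligands, 7 class 3 semaphorins, 13 semaphorins of classes 4 to 7, 9 plexins and 2 neuropilins. The rule used symbols only and no measured value.

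Total RNA was sequenced from 9 organoid samples grown in matrigel with L-WRN conditioned medium from duodenal crypts of wild type C57BL/6J mice. Of these, 3 received Ad-GFP (the control vector), 3 received Ad-hHIF2 and 3 received Ad-hHIF1, so the virus itself was common to all groups. The HIF vectors carry human HIF2 or HIF1 with proline-to-alanine substitutions that prevent breakdown through VHL. The study calls the Ad-GFP and Ad-hHIF2 samples biological replicates, but whether each library came from its own animal or culture is not given in the sources used here, so p-values measure the spread between these samples. The labels number the replicates 1, 3 and 4, and values per sample are given in that order.

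Eph receptors are tyrosine kinases that are activated by ephrins on the surface of a neighbouring cell, and signals can run into both cells. Ephrin-A ligands are held by a lipid anchor, whereas ephrin-B ligands cross the membrane, and in the intestinal epithelium EphB receptors and ephrin-B ligands are known for keeping cells in place along the crypt-villus axis. Semaphorins are ligands of plexins. Those of class 3 are secreted and generally need a neuropilin as co-receptor, and the other vertebrate classes are mostly bound to the membrane.

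Library totals ran from 21722618 to 51119041 expected counts. Epas1, the mouse HIF2 gene, read 604 to 758 CPM (each library's counts divided by its TMM-adjusted total and put on a common scale) in the Ad-hHIF2 samples and 1.47 to 3.07 CPM elsewhere, and Hif1a read 299 to 319 CPM in the Ad-hHIF1 samples and 198 to 251 CPM elsewhere. The TMM-adjusted total of Ad-hHIF2 replicate 1 lay well above its 33412752 expected counts. In no other library did the adjusted total lie as far from the raw total. The label of intestinal epithelium was checked against markers. These markers did not all bear the label out, since keratins and E-cadherin were high while defining genes of intestinal epithelium were low or near 0, so the label is in doubt for these libraries. Krt8, Krt18 and Krt19 read 764 to 1358 CPM and Vil1 3.27 to 4.94 CPM. Cdh1 read 204 to 226 CPM in Ad-GFP, 294 to 352 CPM in Ad-hHIF2 and 220 to 239 CPM in Ad-hHIF1 samples and rose by 0.53 with Ad-hHIF2 (edgeR adjusted p = 0.00313). Epcam read 2.45 to 3.80, 1.42 to 1.90 and 2.42 to 3.15 CPM in the same groups and fell by 0.81 (edgeR adjusted p = 0.0472). Of the intestinal stem and lineage genes looked up after these values were seen, Lgr5 reached 1.18 CPM, Ascl2 0.698 CPM, Olfm4 0.128 CPM, Fabp1 0.0273 CPM and Lyz1 0.0272 CPM at most, while Cdx2 read 6.55 to 8.99 CPM. Muc2, the mucin of goblet cells, read 4.65 to 7.498 CPM in Ad-GFP, 1.49 to 2.01 CPM in Ad-hHIF2 and 3.46 to 4.07 CPM in Ad-hHIF1 samples, and it fell by 1.77 on the log2 scale with Ad-hHIF2 (edgeR adjusted p = 0.000882). Vim, a marker of mesenchymal cells, read 1111 to 1134 CPM in Ad-GFP, 1723 to 1810 CPM in Ad-hHIF2 and 1005 to 1096 CPM in Ad-hHIF1 samples. It rose by 0.65 on the log2 scale with Ad-hHIF2 (edgeR adjusted p = 0.000454). The other 9 mesenchymal markers summed to 10.1 to 20.31 CPM, and the part of mesenchymal cells in the results was not tested. The summed level of 8 endothelial markers was 10.2 to 11.9 CPM in Ad-GFP, 16.3 to 18.5 CPM in Ad-hHIF2 and 10.2 to 13.7 CPM in Ad-hHIF1 samples, but without Egfl7, which rose by 1.31 with Ad-hHIF2 (edgeR adjusted p = 5.28e-05), it was 4.78 to 5.88, 2.77 to 3.78 and 3.63 to 6.66 CPM. The 8 immune markers summed to 2.08 to 6.37 CPM over all samples, with Csf1r higher (1.46; edgeR adjusted p = 0.0475) and Ptprc lower (-3.92; edgeR adjusted p = 0.00472) with Ad-hHIF2. The part of either cell type was not tested. The summed level of 9 neuron and glia markers was 12.7 to 20.7 CPM in Ad-GFP, 5.69 to 9.67 CPM in Ad-hHIF2 and 10.9 to 46.3 CPM in Ad-hHIF1 samples. The summed level of 1609 olfactory and vomeronasal receptor genes, which are normally silent in gut, was 83.9, 131 and 148 CPM in Ad-GFP, 30.8, 48.5 and 66.6 CPM in Ad-hHIF2 and 153, 452 and 59.3 CPM in Ad-hHIF1 samples. Ad-hHIF1 replicate 3 thus stood apart from the other libraries on both of these levels.

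Before any comparison, the families were ranked in the Ad-GFP samples by TPM, a unit scaled by gene length. In Ad-GFP, 11 members had a mean of at least 1 TPM, 23 lay between 0.1 and 1 TPM and 19 lay below 0.1 TPM. The receptor Epha2 (7.24 ± 1.25 TPM, SD, n = 3), the plexin Plxnb2 (7.02 ± 0.737 TPM) and the ligand Efna1 (6.03 ± 0.240 TPM) led. Epha2 and Plxnb2 differed by less than their SDs, and Efna1 lay below Plxnb2 by slightly more than the sum of both SDs. Sema3c followed at 4.53 ± 0.105 TPM, below Efna1 by more than both SDs, and Efnb2 at 2.69 ± 0.557 TPM. The next 6, Plxna1, Sema4b, Sema3e, Nrp2, Ephb4 and Epha4, lay between 1.16 and 1.23 TPM and could not be ordered beyond their spread. Most classes thus had 1 main member. Efna1 made up 81.4% of the ephrin-A TPM, Epha2 80.5% of the EphA TPM, Efnb2 79.5% of the ephrin-B TPM, Nrp2 93.2% of the neuropilin TPM, and Sema3c and Plxnb2 67.1% and 67.0% of their classes (means over 3 samples).

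**Figure D1:**
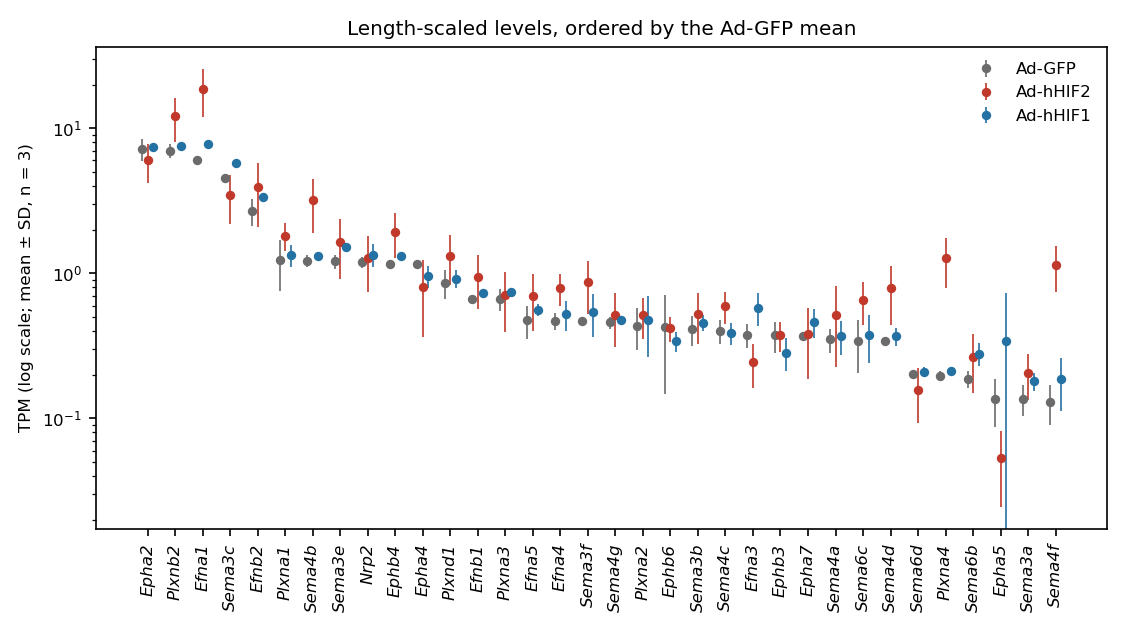
TPM (log scale, mean ± SD, n = 3) of the 34 members with a mean of at least 0.1 TPM in Ad-GFP, ordered by that mean, in Ad-GFP (grey), Ad-hHIF2 (red) and Ad-hHIF1 (blue) samples. Epha2, Plxnb2 and Efna1 lead in Ad-GFP and Efna1 (18.8 TPM) in Ad-hHIF2, where the SDs are wide, and the bar of Epha5 in Ad-hHIF1 runs below the axis because its SD exceeds its mean.

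Human HIF2 was accompanied by changes in both directions across these families. Differences were tested on the counts with the quasi-likelihood method of edgeR, and a gene was called where its Benjamini-Hochberg adjusted p was below 0.05 and its level changed 2-fold or more. Against Ad-GFP, 7 of the 42 members tested were called higher with Ad-hHIF2 (2.90% of all 14987 genes tested were) and 1 was called lower (3.83% of all genes; 6.73% in either direction). The 7 were the plexin Plxna4, the semaphorins Sema4f, Sema5a, Sema7a and Sema4d, the receptor Ephb2 and the ligand Efna1, and the gene called lower was the ligand Efna3. At an adjusted p below 0.05 without a fold threshold, 9 members were higher and 8 lower, against 15.9% and 13.6% of all genes, or 29.5% in either direction. Of these, 7 of the 9 higher and none of the 8 lower members passed in limma fits of log2 TPM, and with counts scaled by library totals alone Epha2, Epha7, Nrp2 and Sema4g did not pass either. The median log2 fold change over the tested members was 0 (all genes: -0.01). In 22 of the 42 the Ad-hHIF2 and Ad-GFP samples did not overlap, 12 above and 10 below, and 45.8% of all genes did not overlap.

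**Figure D2:**
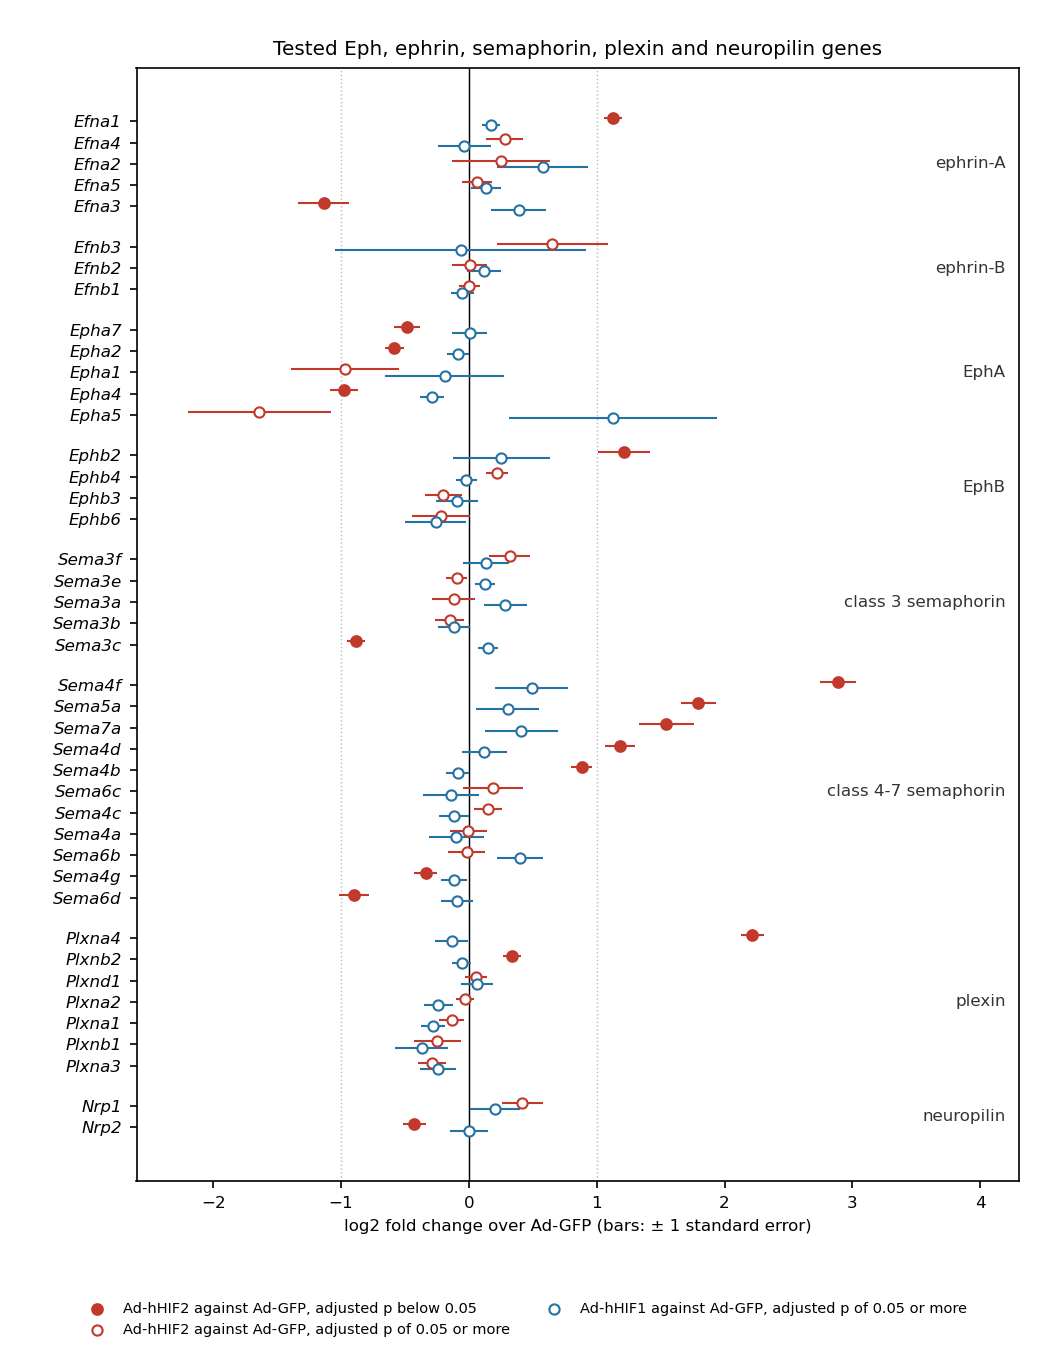
Log2 fold change over Ad-GFP (± 1 SE from the edgeR fit) of the 42 members tested in Ad-hHIF2 (red) and the same genes in Ad-hHIF1 (blue), grouped by class. Filled points have an edgeR adjusted p below 0.05; they run from -1.14 (Efna3) to 2.89 (Sema4f), they are all from Ad-hHIF2, and dotted lines mark a 2-fold change.

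Among the ligands of Eph receptors, neighbouring genes differed. Efna1 (ENSMUSG00000027954, chromosome 3, 89271733 to 89281142, minus strand) and Efna3 (ENSMUSG00000028039, chromosome 3, 89313899 to 89322965, minus strand) lie 32.8 kb apart in the GENCODE M21 annotation of GRCm38, Efna4 lies 10.4 kb beyond Efna3, and no other coding gene lies between them. Efna1, which binds EphA receptors such as Epha2, read 66.9, 66.4 and 66.8 CPM in Ad-GFP, 145, 153 and 138 CPM in Ad-hHIF2 and 70.3, 78.2 and 77.4 CPM in Ad-hHIF1 samples. All Ad-hHIF2 samples were more than 2-fold above every Ad-GFP sample, and the 3 groups did not overlap. Its log2 fold change with Ad-hHIF2 was 1.13 ± 0.0724 (SE; edgeR adjusted p = 1.57e-05), and Ad-hHIF2 exceeded Ad-hHIF1 by 0.95 (edgeR adjusted p = 8e-06), just under the fold threshold. Efna1 rose to 91.0% of the ephrin-A TPM in Ad-hHIF2 samples.

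Efna3, also an ephrin-A ligand, moved the other way. It read 5.68, 6.49 and 8.55 CPM in Ad-GFP, 2.92, 2.73 and 3.73 CPM in Ad-hHIF2 and 9.57, 6.79 and 10.6 CPM in Ad-hHIF1 samples. Every Ad-hHIF2 sample lay below every other sample, and Ad-GFP and Ad-hHIF1 overlapped. The log2 change was -1.14 ± 0.203 against Ad-GFP (edgeR adjusted p = 0.00381) and -1.53 ± 0.216 against Ad-hHIF1 (edgeR adjusted p = 6.01e-04). Leaving out single libraries moved the first value between -1.27 and -0.96, so its place past 2-fold depended on them. An exon of Efna3 overlaps Gm15998 on the other strand, which read 0.527 to 0.965 CPM, and whether reads were counted by strand is not given in the sources used here. For Efna4 the difference was 0.28 (95% interval -0.05 to 0.61) and for Efna5 0.06 (-0.21 to 0.34), neither past the test. The ephrin-B ligands showed no change past it either: Efnb2, the main one, read 106, 98.9 and 72.4 CPM in Ad-GFP and 103, 86.9 and 88.0 CPM in Ad-hHIF2 samples, with a log2 difference of 0.01 (95% interval -0.30 to 0.32).

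Since these 3 ephrin-A genes sit side by side and their levels differed in direction, windows of 250 bases before a RefSeq start of each are shown (GRCm38.p6, minus strand, 5′ to 3′, lower case). Capitals mark ACGTG or GCGTG on either strand, the letters at the core of a hypoxia response element, which HIF proteins are known to bind. A CACGTG counts on both strands. Such a match is present in 38.6% of all 32851 RefSeq windows of this length, and it describes letters, not a bound site. The Efna1 window (chr3:89279646-89279895) lies before an inner start and inside the annotated gene and holds no match, nor does the outer Efna1 window. The Efna3 window (chr3:89322940-89323189) holds matches that begin 106 and 66 bases before the start. A second Efna3 window, before an inner start (chr3:89321769-89322018), holds matches that begin 222, 202 and 108 bases before it, and the Efna4 window (chr3:89338029-89338278) holds none.
Efna1: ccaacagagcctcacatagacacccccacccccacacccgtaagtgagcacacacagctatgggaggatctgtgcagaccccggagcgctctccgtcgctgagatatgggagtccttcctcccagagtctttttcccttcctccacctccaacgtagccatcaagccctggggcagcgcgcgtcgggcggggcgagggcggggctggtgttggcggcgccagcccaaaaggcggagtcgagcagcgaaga
Efna3: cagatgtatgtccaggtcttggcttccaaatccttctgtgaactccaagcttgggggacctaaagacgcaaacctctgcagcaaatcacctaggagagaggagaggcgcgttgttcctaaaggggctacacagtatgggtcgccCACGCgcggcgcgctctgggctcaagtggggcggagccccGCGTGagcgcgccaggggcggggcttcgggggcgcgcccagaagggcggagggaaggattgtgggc
Efna4: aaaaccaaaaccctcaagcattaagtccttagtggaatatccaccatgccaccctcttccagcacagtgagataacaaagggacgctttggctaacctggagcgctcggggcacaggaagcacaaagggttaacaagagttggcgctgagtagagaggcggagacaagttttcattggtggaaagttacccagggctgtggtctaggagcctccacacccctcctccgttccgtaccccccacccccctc

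Of the Eph receptors, those of the A class fell or did not pass the test, and Ephb2 rose. Epha2, the main receptor of Efna1 in epithelia, read 160, 149 and 168 CPM in Ad-GFP, 107, 105 and 106 CPM in Ad-hHIF2 and 154, 139 and 156 CPM in Ad-hHIF1 samples, so every Ad-hHIF2 sample lay below every other. The log2 change was -0.58 ± 0.0763 (edgeR adjusted p = 7.9e-04), but -0.32 with total counts alone (edgeR adjusted p = 0.203). Epha4, which binds ephrins of both classes, read 44.6, 46.6 and 52.9 CPM in Ad-GFP, 28.1, 21.6 and 23.3 CPM in Ad-hHIF2 and 40.0, 35.9 and 42.0 CPM in Ad-hHIF1 samples. It fell by 0.98 on the log2 scale (edgeR adjusted p = 3.31e-04), next to the 2-fold line. Epha7 fell by 0.48 (edgeR adjusted p = 0.00888), but differed by -0.23 with total counts alone (edgeR adjusted p = 0.398). Epha1, below 1 CPM on average in all groups, differed by -0.97 and did not pass (edgeR adjusted p = 0.119), and all 5 tested EphA receptors had a fold change below 0, from -1.64 to -0.48, although Epha7 was at 0.00 on log2(TPM + 1).

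The lowest of these values, that of Epha5, moved with the level of normally silent receptor genes. Epha5, a receptor best known from neurons, read 3.13, 6.28 and 6.48 CPM in Ad-GFP, 0.387, 2.41 and 2.27 CPM in Ad-hHIF2 and 5.61, 27.5 and 1.99 CPM in Ad-hHIF1 samples. The highest value came from Ad-hHIF1 replicate 3, the library with 452 CPM of olfactory and vomeronasal receptors, and the lowest from Ad-hHIF2 replicate 1, with 30.8 CPM. Against Ad-GFP the difference of -1.64 did not pass (edgeR adjusted p = 0.0557) but did under 7 of 16 alternatives. With the receptor level as a covariate over all 9 samples it was 0.11 (edgeR adjusted p = 0.866). That level itself differed by group, at 83.9 to 148 CPM in Ad-GFP and 30.8 to 66.6 CPM in Ad-hHIF2 samples, without overlap. A fit with this covariate therefore cannot fully separate the receptor level from the vector. Against Ad-hHIF1 Epha5 was called lower, by -2.78 ± 0.890 (edgeR adjusted p = 0.0438). Without Ad-hHIF1 replicate 3 that difference was -1.18 (edgeR adjusted p = 0.241), and leaving out any one of 7 of the 9 libraries lifted the adjusted p above 0.05. With the same covariate it was 0.31 (edgeR adjusted p = 0.697). In the same kind of fit, the Ad-hHIF2 difference from Ad-GFP was -0.30 for Epha7 (edgeR adjusted p = 0.117), -0.22 for Nrp2 (edgeR adjusted p = 0.248) and -0.31 for Sema4g (edgeR adjusted p = 0.0903), while Epha2, Epha4, Sema3c, Sema6d and Efna3 stayed below an adjusted p of 0.05. The part of neuron and glia transcripts in these values was not tested. In bulk RNA, fewer cells of a type and less RNA per cell cannot be told apart.

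**Figure D3:**
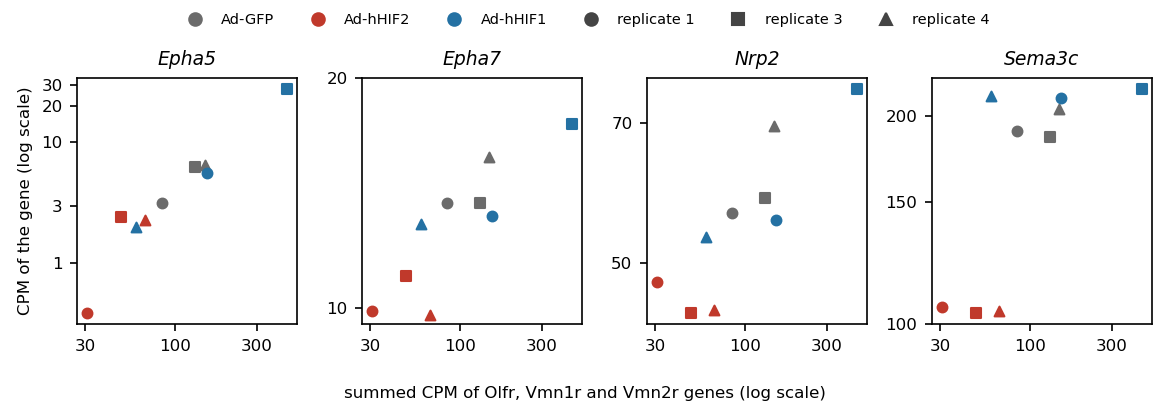
CPM of Epha5, Epha7, Nrp2 and Sema3c (log scale) against the summed CPM of the olfactory and vomeronasal receptor genes (log scale) in the 9 samples, with colour for the group and symbol for the replicate. Epha5 is highest (27.5 CPM) where the receptor sum is highest (452 CPM) and lowest (0.387 CPM) where it is lowest (30.8 CPM), while Sema3c is set apart by group, at 104 to 106 CPM in Ad-hHIF2 samples.

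Ephb2, which helps to position cells in the crypt, was the Eph receptor called higher. It read 2.13, 2.97 and 1.85 CPM in Ad-GFP, 5.65, 5.10 and 5.55 CPM in Ad-hHIF2 and 1.71, 4.27 and 2.43 CPM in Ad-hHIF1 samples, and Ad-hHIF2 lay above all others. The log2 change was 1.22 ± 0.203 against Ad-GFP (edgeR adjusted p = 0.00274). Against Ad-hHIF1 it was 0.97 (edgeR adjusted p = 0.0419). That value did not stay past the test without Ad-GFP replicate 1, without any one Ad-hHIF2 replicate or without Ad-hHIF1 replicate 1 or 4, each of which gave an edgeR adjusted p of 0.0597 to 0.126. Ephb4, the main EphB receptor and the partner of Efnb2, read 37.98, 36.1 and 42.5 CPM in Ad-GFP, 44.2, 43.2 and 48.1 CPM in Ad-hHIF2 and 38.8, 36.6 and 39.5 CPM in Ad-hHIF1 samples. Its Ad-hHIF2 samples lay above the rest, but by 0.22 (edgeR adjusted p = 0.081) and, against Ad-hHIF1, by 0.24 (edgeR adjusted p = 0.0486), a value that 17 of 19 alternatives moved above 0.05. Ephb3 and Ephb6 did not pass. The window before the RefSeq start of Ephb2 (chr4:136836013-136836262, minus strand) is shown because Ephb2 is the Eph receptor gene that rose past 2-fold. Its matches begin 104 and 38 bases before the start.
Ephb2: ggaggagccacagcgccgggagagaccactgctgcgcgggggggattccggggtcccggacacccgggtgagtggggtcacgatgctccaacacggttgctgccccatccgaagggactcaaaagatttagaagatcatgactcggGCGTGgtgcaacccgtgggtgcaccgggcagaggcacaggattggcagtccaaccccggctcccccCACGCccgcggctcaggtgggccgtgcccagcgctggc

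Of the 11 semaphorins of classes 4 to 7 that were tested, 4 were called higher (2.90% of all genes were), and Sema4f had the largest change of all tested members. Sema4f, a membrane semaphorin, read 4.15, 3.05 and 2.85 CPM in Ad-GFP, 24.7, 24.9 and 25.5 CPM in Ad-hHIF2 and 3.58, 6.66 and 4.04 CPM in Ad-hHIF1 samples. The Ad-hHIF2 samples agreed closely and stood far above the other 6. The change was 7.40-fold, a log2 fold change of 2.89 ± 0.139 (edgeR adjusted p = 2.98e-06), and 2.42 ± 0.214 against Ad-hHIF1 (edgeR adjusted p = 2.66e-05). Sema4f went from 3.5% to 13.8% of the TPM of classes 4 to 7.

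Sema5a, which carries thrombospondin repeats and binds plexins, read 3.53, 3.44 and 3.15 CPM in Ad-GFP, 11.3, 10.4 and 13.5 CPM in Ad-hHIF2 and 3.17, 5.56 and 3.84 CPM in Ad-hHIF1 samples. Its 3.47-fold rise (log2 1.80 ± 0.139; edgeR adjusted p = 4.43e-05) again separated Ad-hHIF2 from all other samples, and the level was 2.82-fold that with Ad-hHIF1 (edgeR adjusted p = 4.19e-04). Sema7a, a lipid-anchored semaphorin that binds plexin C1 and integrins, was a gene of low counts. It read 1.64, 2.27 and 2.0 CPM in Ad-GFP, 6.70, 4.55 and 5.95 CPM in Ad-hHIF2 and 1.98, 2.76 and 3.12 CPM in Ad-hHIF1 samples. Ad-hHIF2 did not overlap either group. The log2 fold change was 1.54 ± 0.215 (edgeR adjusted p = 0.00109), and 1.13 ± 0.238 against Ad-hHIF1 (edgeR adjusted p = 0.00629). With the receptor level as a covariate the latter was 1.04 and did not pass (edgeR adjusted p = 0.0592). Plxnc1, its plexin, was not tested for low counts. Sema4d, a ligand of plexin B receptors, read 6.55, 7.67 and 6.56 CPM in Ad-GFP, 16.3, 13.9 and 17.0 CPM in Ad-hHIF2 and 8.81, 6.00 and 7.74 CPM in Ad-hHIF1 samples. Here too Ad-hHIF2 lay above all others, with a log2 fold change of 1.18 ± 0.118 (edgeR adjusted p = 1.82e-04) and 1.05 ± 0.148 against Ad-hHIF1 (edgeR adjusted p = 5.79e-04).

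The windows of Sema4f (chr6:82939770-82940019, minus strand) and Sema7a (chr9:57939862-57940111, plus strand) are set side by side because the gene with the largest rise has no match in its window and Sema7a has 1, which begins 165 bases before the start. Over the genes called higher, 6 of 7 were in the RefSeq table (Plxna4 was not), and 4 of these had a match in a window, Ephb2, Sema4d, Sema5a and Sema7a. Efna3, the gene called lower, had one as well. At an adjusted p below 0.05 alone, 5 of the 8 higher genes in the table and 7 of the 8 lower genes had one, and over the families 26 of the 47 members in the table did. A match in any window was present for 41.5% of all 27025 genes of the RefSeq table.
Sema4f: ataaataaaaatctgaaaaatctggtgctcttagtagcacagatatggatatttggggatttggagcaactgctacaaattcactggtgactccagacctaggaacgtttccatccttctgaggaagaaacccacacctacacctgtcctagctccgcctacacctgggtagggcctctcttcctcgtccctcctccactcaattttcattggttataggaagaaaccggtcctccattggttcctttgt
Sema7a: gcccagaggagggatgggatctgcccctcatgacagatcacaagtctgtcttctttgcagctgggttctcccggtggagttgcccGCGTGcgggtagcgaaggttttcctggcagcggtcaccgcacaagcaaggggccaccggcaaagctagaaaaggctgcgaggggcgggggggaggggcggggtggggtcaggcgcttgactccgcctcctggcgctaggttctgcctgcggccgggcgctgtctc

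**Figure D4:**
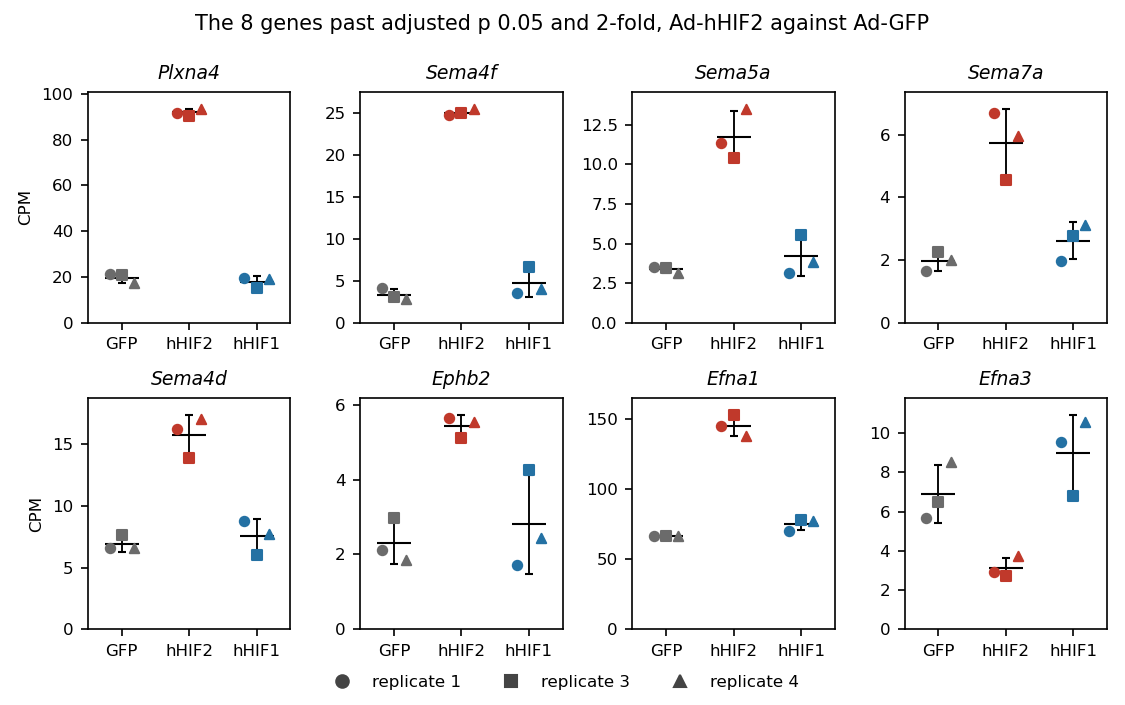
CPM per sample of the 8 genes called with Ad-hHIF2 against Ad-GFP, by group, with the symbol for the replicate and bars for the mean ± SD (n = 3). In each panel the Ad-hHIF2 samples lie apart from all other samples, above them for 7 genes (24.7 to 25.5 CPM for Sema4f) and below them for Efna3 (2.73 to 3.73 CPM).

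Sema4b, the main semaphorin of classes 4 to 7, rose by less than 2-fold. It read 33.2, 34.3 and 39.8 CPM in Ad-GFP, 68.3, 63.6 and 65.0 CPM in Ad-hHIF2 and 32.3, 35.0 and 33.7 CPM in Ad-hHIF1 samples, a log2 fold change of 0.88 ± 0.0851 (edgeR adjusted p = 1.53e-04). Sema6d, a membrane semaphorin that binds plexin A receptors, fell by 0.90 (edgeR adjusted p = 8.22e-04), from 9.43 ± 0.598 to 5.05 ± 0.380 CPM (SD, n = 3). Sema4g was lower by -0.34 (edgeR adjusted p = 0.0233). Its place past the test rested on single libraries and on scaling. Without Ad-GFP replicate 1 or 3, or without any one Ad-hHIF2 replicate, its adjusted p was 0.0576 to 0.0865, and with total counts alone the difference was -0.07 (edgeR adjusted p = 0.811).

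Of the 5 secreted class 3 semaphorins tested, Sema3c passed the test, where 29.5% of all genes did in either direction. Sema3c, the main one, which signals through neuropilins with plexin A or plexin D1, read 190, 186 and 205 CPM in Ad-GFP, 106, 104 and 105 CPM in Ad-hHIF2 and 212, 219 and 214 CPM in Ad-hHIF1 samples. The 3 groups did not overlap, with Ad-hHIF2 lowest and Ad-hHIF1 highest. The log2 change was -0.88 ± 0.0737 against Ad-GFP (edgeR adjusted p = 6.53e-05) and -1.04 ± 0.0669 against Ad-hHIF1 (edgeR adjusted p = 3.1e-06), past 2-fold in the second. Sema3c went from 67.1% to 52.1% of the class 3 TPM. Sema3a, Sema3b, Sema3e and Sema3f did not pass against Ad-GFP, with values from -0.15 to 0.32.

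Of the receptors for semaphorins, Plxna4 was the one called. Plxna4 (ENSMUSG00000029765, chromosome 6, 32144268 to 32588192, minus strand), a receptor for class 3 semaphorins with neuropilins and for class 6 semaphorins directly, read 21.3, 20.7 and 17.2 CPM in Ad-GFP, 91.7, 90.5 and 93.5 CPM in Ad-hHIF2 and 19.6, 15.2 and 19.1 CPM in Ad-hHIF1 samples. The Ad-hHIF2 samples were more than 4-fold above every other sample. The log2 fold change was 2.22 ± 0.091 (4.66-fold; edgeR adjusted p = 1.26e-06), and 2.35 ± 0.110 against Ad-hHIF1 (edgeR adjusted p = 3.8e-07). The annotated antisense gene Plxna4os3 was at 0 in all samples. In TPM, Plxna4 went from 1.9% to 7.1% of the plexins.

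Plxnb2, the main plexin and a receptor for class 4 semaphorins, read 218, 208 and 209 CPM in Ad-GFP, 270.2, 263 and 267 CPM in Ad-hHIF2 and 206, 196 and 208 CPM in Ad-hHIF1 samples. The rise was small but larger than the spread, at 0.34 ± 0.0706 (edgeR adjusted p = 0.00776) and 0.39 against Ad-hHIF1 (edgeR adjusted p = 0.00166). On log2(TPM + 1) it was 0.67 and on log2(TPM + 0.1) 0.73, and neither passed (limma adjusted p = 0.197 and 0.172). Plxna1, Plxna2, Plxna3, Plxnb1 and Plxnd1 did not pass and ranged from -0.29 to 0.06. Nrp2, the main neuropilin, read 56.3, 58.4 and 69.5 CPM in Ad-GFP, 47.7, 44.3 and 44.6 CPM in Ad-hHIF2 and 55.4, 76.0 and 53.2 CPM in Ad-hHIF1 samples. It fell by 0.43 (edgeR adjusted p = 0.00929), but differed by -0.16 with total counts alone (edgeR adjusted p = 0.544). Ad-hHIF1 replicate 3 was again its highest library. Nrp1, known as a co-receptor for VEGF as well as for semaphorins, differed by 0.42 and did not pass (edgeR adjusted p = 0.0851).

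**Figure D5:**
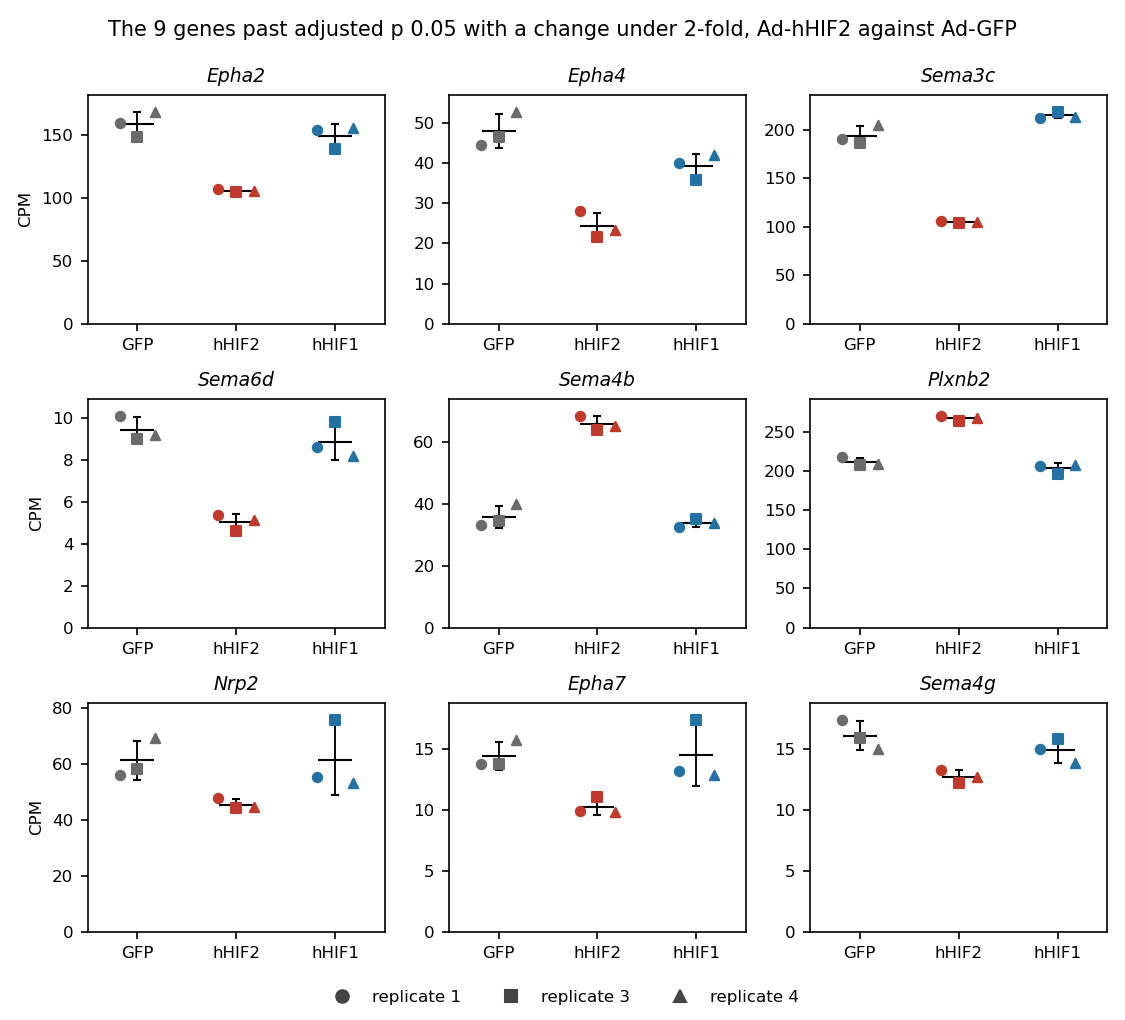
CPM per sample of the 9 genes that passed an edgeR adjusted p of 0.05 with a change under 2-fold with Ad-hHIF2 against Ad-GFP, by group, with the symbol for the replicate and bars for the mean ± SD (n = 3). The Ad-hHIF2 samples lie above all others for Sema4b and Plxnb2 and below them for the other 7, and Ad-hHIF1 replicate 3 is the highest library for Nrp2 (76.0 CPM) and Epha7 (17.4 CPM).

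With Ad-hHIF1 no member was called. Of 43 members tested, 0 were called by edgeR (0% of 15233 genes), with 0.516 as the lowest edgeR adjusted p. DESeq2 also called 0, but its count rests on 4598 genes (0.0217% called), so not every member may have had an adjusted p there. By edgeR, 3 had an unadjusted p below 0.05 (8.59% of all genes), named here after their values were seen: Efna1 at 0.18 and, lower, Epha4 at -0.29 and Plxna1 at -0.28. The Ad-hHIF1 and Ad-GFP samples did not overlap for 5 members above and 5 below (17.4% of all genes). The 95% intervals show what was within reach of this comparison. They ran from -0.43 to 0.16 for Plxna4, from 0.01 to 0.34 for Efna1, from -0.17 to 1.15 for Sema4f and from -0.62 to 1.13 for Ephb2. The estimate of the change with Ad-hHIF2 lies outside each of these 4. For Ephb2, however, the 95% interval with Ad-hHIF2 (0.75 to 1.68) overlaps that with Ad-hHIF1. Hif1a read 299 to 319 CPM with Ad-hHIF1 and 198 to 251 CPM elsewhere, and how active that vector was in these samples was not tested. Without Ad-hHIF1 replicate 3 the count was also 0.

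The difference between the 2 HIF vectors was tested directly in a fit of all 9 samples. Of 42 members, 5 were called higher with Ad-hHIF2 than with Ad-hHIF1 (2.42% of all 15556 genes) and 3 lower (3.70%; 6.11% in either direction). Those higher were Plxna4, Sema4f, Sema5a, Sema7a and Sema4d, and those lower were Sema3c, Efna3 and Epha5. Without a fold threshold 10 were higher and 8 lower (13.7% and 12.0% of all genes, 25.8% in either direction), and the samples of the 2 groups did not overlap for 24 (41.8% of all genes). This comparison shares the Ad-hHIF2 samples with the one against Ad-GFP, so the lists are not independent. Without Ad-hHIF1 replicate 3, 5 were called higher and 2 lower (4.23% of all genes in either direction).

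The remaining members were at or near the limit of detection. For low counts, 11 members were not tested with Ad-hHIF2 against Ad-GFP: Epha3, Epha6, Epha8, Epha10, Ephb1, Sema3d, Sema3g, Sema5b, Sema6a, Plxnb3 and Plxnc1. They read 0 to 0.920 CPM, with at most 21 counts in any sample, and none was at 0 in every sample. Of these, Epha8 was tested with Ad-hHIF1, at -1.68 (edgeR adjusted p = 0.588). Among those not tested, named after their values were seen, Plxnc1 had 1, 3 and 3 counts in Ad-GFP, 16, 13 and 18 in Ad-hHIF2 and 0, 4 and 5 in Ad-hHIF1 samples, so Ad-hHIF2 lay above both groups. Epha8 had 11, 13 and 8 counts in Ad-GFP and 2, 0 and 0 in Ad-hHIF2 samples, which did not overlap. Sema3g did not overlap either in CPM, at 0 to 2 counts, and for the other 8 these groups overlapped. Such separations rest on few reads. Of all genes tested, 45.8% did not overlap, and the share among the genes not tested was not worked out. For 15 members, among them Efna3, Ephb2, Sema4d, Epha2, Nrp2, Sema6d and Epha5, the expected counts were not whole in every sample. In RSEM this arises where reads are shared out between genes, so the levels of these members carry an uncertainty from that step. Its size was not tested, and the other 38 members had whole counts.

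The proteins that act next to these receptors were described from lists of known partners. Of 27 tested partners and effectors of Eph receptors and ephrins, 1 was called higher with Ad-hHIF2 against Ad-GFP and none lower (2.90% and 3.83% of all genes), and 4 and 1 passed an adjusted p of 0.05 (15.9% and 13.6% of all genes). The one called was Adam10, a protease that sheds ephrins, which rose by 1.42 (edgeR adjusted p = 1.76e-05) from a mean of 32.0 to 85.3 CPM. Of 33 tested partners and effectors of semaphorins and plexins, 4 were called higher and none lower, and 13 were higher and 3 lower at an adjusted p of 0.05, to be read against the same shares of all genes. These 4 were Limk1, the kinase that inactivates cofilin, at 2.62 (edgeR adjusted p = 5.02e-06), Met, a receptor tyrosine kinase that associates with plexin B receptors, at 1.16 (edgeR adjusted p = 1.22e-05), Flt1, a VEGF receptor, at 1.16 (edgeR adjusted p = 2.27e-05) and Rnd1, a GTPase that binds plexins, at 1.02 (edgeR adjusted p = 1.53e-04). The median log2 fold change was 0.03 over the first list and 0.22 over the second, against -0.01 over all genes. With Ad-hHIF1, no gene of either list passed an adjusted p of 0.05 by edgeR or by DESeq2. DESeq2 gave an adjusted p to 13 of 27 and 18 of 33 of them. In the 2 lists, 3 and 1 had an unadjusted edgeR p below 0.05 (8.59% of all genes did).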

How the data were processed

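RNA sequencing of 9 duodenal organoid samples was used. The authors removed low-quality reads and estimated gene levels with RSEM. The deposited tables hold expected counts per gene, which the authors did not normalize further, and TPM, which RSEM scales by effective gene length. The RSEM version, aligner, genome build, annotation and strand setting are not given in the sources used here. Of the expected counts, 85.7% are whole numbers (tolerance 0.005).

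Expected counts were rounded to whole numbers, filtered with filterByExpr, normalized by TMM and compared with the quasi-likelihood test of edgeR 4.0.16 (limma 3.58.1, R 4.3.3), with Benjamini-Hochberg adjustment over all genes tested. Each HIF vector was compared with Ad-GFP in its own 6 samples and with the other in all 9. Standard errors were derived from the F statistic. CPM used TMM factors over all 9 samples, and levels of different members were ordered only by TPM. The method was tested on simulated counts with the same spread for every gene, a simpler setting than these data, so that test does not vouch for the results here. With 3 samples per group a two-sided exact permutation test cannot go below p = 0.1.

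Alternatives were DESeq2 1.42.0, limma on log2(TPM + 1) and log2(TPM + 0.1), other scaling and filters, a replicate block, a covariate and leaving out each sample. Gene positions came from GENCODE M21 (GRCm38), matched for all 53 members by Ensembl identifier, and windows from a RefSeq promoter table (GRCm38.p6), which held 47 of them. The members and lists were chosen with earlier results of these data known. Values are given in full for members called in any comparison. At least a fold change and an adjusted p are given for members at an adjusted p below 0.05 and for the member with the highest TPM of each class. Of the lists, called genes are named, at most 5 per list.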

Additional observations from a re-analysis of the deposited data

Results flagged for a closer look

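For 2 genes every Ad-hHIF2 sample lay on one side of all Ad-GFP samples and every Ad-hHIF1 sample on the other, as for 3.01% of the 14731 genes tested against Ad-GFP in both comparisons. Sema3c had a log2 fold change of -0.88 with Ad-hHIF2 and 0.15 with Ad-hHIF1 against the same Ad-GFP samples. The difference between the vectors, tested in a fit of all 9 samples, was -1.04 (edgeR adjusted p = 3.1e-06). In the limma fits of log2(TPM + 1) and log2(TPM + 0.1) it was -0.62 and -0.75, and neither passed (limma adjusted p = 0.158 and 0.132). Plxnb2 had 0.34 with Ad-hHIF2 and -0.06 with Ad-hHIF1, and the difference was 0.39 (edgeR adjusted p = 0.00166), but 0.58 and 0.63 in the limma fits of log2(TPM + 1) and log2(TPM + 0.1), where it did not pass (limma adjusted p = 0.231 and 0.202). For Plxnb2 the separation of Ad-hHIF1 from Ad-GFP was slight, since the highest Ad-hHIF1 and the lowest Ad-GFP sample both read 207.8 CPM. Neither change with Ad-hHIF1 passed the test (edgeR adjusted p = 0.615 for Sema3c and 0.836 for Plxnb2).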

How the results depend on the processing

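For Plxna4, Sema4f, Sema5a, Sema7a, Efna1, Ephb2 and Sema4b, the adjusted p against Ad-GFP stayed below 0.05 with Ad-hHIF2 under all 16 alternatives, and Sema4d, Plxnb2, Efna3, Sema3c, Epha4 and Sema6d lost it in the 2 TPM fits alone. Epha2, Epha7, Nrp2 and Sema4g lost it in both of these fits and with total counts alone (adjusted p of 0.203 to 0.811). Whether the replicate numbers pair the samples was not settled by these data. Same-number correlations for Ad-hHIF2 and Ad-GFP were 0.085, 0.093 and 0.214, and different-number ones ran from -0.214 to 0.132. Between the vectors the same-number correlations ran from -0.25 to -0.088. In a fit blocked on replicate number 7 members were called higher and 2 lower with Ad-hHIF2 against Ad-GFP (6.91% of all genes), while Epha5 and Ephb4 passed the test. Of the counts against Ad-GFP with Ad-hHIF2, no fold threshold gave 17 (9 higher, 8 lower), and limma on log2(TPM + 1) gave 1 (1 higher, 0 lower), where 1.58% of all genes were called. The count called lower was 4 with no filter, 3 with at least 10 counts in every sample, 2 with the receptor covariate and 0 on log2(TPM + 0.1), and these settings called 4.51%, 6.92%, 4.76% and 5.14% of all genes in either direction. Leaving out single libraries gave 7 to 8 higher and 1 to 4 lower (9 to 11 in all, and 4.99% to 6.39% of all genes): 3 lower without Ad-GFP replicate 1, 4 without Ad-hHIF2 replicate 1, and 2 without Ad-GFP replicate 3 or without Ad-hHIF2 replicate 3 or 4. With Ad-hHIF1, no filter called 1 member, Epha5 (1.10, higher; 0.464% of all genes). Between the vectors, no fold threshold gave 18 (10 higher, 8 lower), total counts alone 8 higher, log2(TPM + 0.1) 4 (0 lower) and log2(TPM + 1) 1 (1 higher, 0 lower), where the last 3 called 6.56%, 2.62% and 0.887% of all genes, and single libraries left out gave 7 to 8 (4 to 5 higher, 2 to 3 lower), against 3.56% of all genes without Ad-hHIF2 replicate 1 to 7.13% without Ad-hHIF1 replicate 4. Of the values past the test against Ad-GFP with Ad-hHIF2, the sign turned on log2(TPM + 1) for Sema4g (0.05), Nrp2 (0.03) and Epha7 (0.00), and on log2(TPM + 0.1) for Sema4g (0.10) and Nrp2 (0.03). With the receptor covariate it turned for Epha5 between the vectors (0.31) and for its value against Ad-GFP, which had not passed (0.11). With Ad-hHIF2 the median of all genes was 0.244 with total counts alone, 0.124 on log2(TPM + 1) and 0.302 on log2(TPM + 0.1), against -0.01. These settings do not apply the TMM factors, which changed the total of Ad-hHIF2 replicate 1 the most. Of the 18 members past the test between the vectors, Plxna4, Sema4f, Sema5a, Efna1 and Sema4b passed in both TPM fits and the other 13 in neither, among them Sema4d, Sema7a, Sema3c, Efna3, Epha5 and Plxnb2. The cause of these differences was not tested.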

Other observations

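Other guidance genes were described for comparison, from a list of 27. The list included slits, netrins, FLRT proteins and their receptors, and also Rgma, Rgmb and Ryk. Of the 27, 14 were tested with Ad-hHIF2 against Ad-GFP. At an adjusted p below 0.05 and 2-fold, 3 were higher and none lower (2.90% and 3.83% of all genes), and 4 and 1 passed the adjusted p alone, against 15.9% and 13.6% of all genes. Flrt3, a membrane protein that binds Unc5 receptors, rose by 1.28 (edgeR adjusted p = 1.22e-05) from a mean of 33.4 to 80.9 CPM. Unc5c, a netrin receptor, rose by 1.52 (edgeR adjusted p = 0.00127) from 2.21 to 6.35 CPM. Ntng2 was called at 3.40 (edgeR adjusted p = 0.0195), but at means of 0.0277 and 0.364 CPM. Netrin 4 (Ntn4) rose by 0.89 (edgeR adjusted p = 6.92e-04) and Slit2, a ligand of Robo receptors, fell by 0.88 (edgeR adjusted p = 0.00503). The median log2 fold change of the list was -0.06 (all genes: -0.01). With Ad-hHIF1 no gene of it passed an adjusted p of 0.05 by edgeR or DESeq2, but DESeq2 gave an adjusted p to only 4 of the 13 tested. An unadjusted edgeR p below 0.05 was reached by 0 of them (8.59% of all genes).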
